A study of Mus musculus with 16 samples.

Results

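The 44 genes described here encode the machinery that copies DNA: factors that license and fire replication origins, the helicase, the polymerases with their clamp, the proteins that protect and finish the new strands, and the enzymes that supply nucleotides. They were chosen by name, as the rows of the deposited expression table whose gene symbol is on that list, and all 44 were found among its 30095 genes. Every one reached 1 CPM (reads scaled to library size) in at least 2 libraries and entered the tests, which covered 17546 genes.

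Bulk RNA sequencing was done on whole lungs of C57BL/6 mice that carried HKP1, a transplanted mouse lung adenocarcinoma line. The lungs received 0, 4 or 8 Gy of radiation (RT), and the mice received control IgG or an anti-PD-1 antibody, which blocks an inhibitory receptor of T cells. There were 3 libraries of IgG at 0 Gy, 2 of anti-PD-1 at 0 Gy, 2 of IgG at 4 Gy, 3 of anti-PD-1 at 4 Gy, 3 of IgG at 8 Gy and 3 of anti-PD-1 at 8 Gy, each pooled from 3 to 4 mice and labelled as taken 24 to 48 h after RT. All groups bore tumour, so none is a healthy lung. The labels do not say that the pools of a group held different mice; the p-values then reflect how these pools varied, which may be technical.

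Before S phase, the origin recognition complex, Cdc6 and Cdt1 load the ring of Mcm2 to Mcm7 onto DNA. The Cdc7 kinase, Cdc45 and the GINS complex turn that ring into the running helicase, and DNA polymerase alpha with primase lays down primers for the polymerases delta and epsilon, which are held on DNA by the PCNA clamp. Many of these genes are transcribed from the G1-S boundary under E2F factors, so in tissue they are read as genes of dividing cells. In bulk samples, fewer cells of a type and less RNA per cell cannot be told apart.

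Promoter sequence was looked at because E2F sites are the textbook feature of these genes. RefSeq promoters of the build GRCm38.p6 (250 bases before to 50 after each start) were available for 36 of the 44 genes, in 42 entries. An E2F core, taken as TTTCGCGC, TTTGGCGC, TTTCCCGC or TTTGCCGC on either strand and with overlapping matches counted, lay in 13 of these 42 entries (31%), against 744 of all 32851 promoters (2.26%). The 13 genes were Cdc6, Cdt1, Gins3, Lig1, Mcm3, Mcm5, Mcm6, Mcm7, Orc1, Pola1, Pold1, Pole2 and Rfc3. The CCAAT box, CCAAT on either strand, lay in 23 entries (54.8%, against 37.4% of all), and the cell cycle element TTTGAA or TTCGAA in 9 (21.4%, against 19.2%). Upstream stretches of 5 genes to which the results return are given, read on the gene's own strand, with E2F cores in capitals. Mcm6 (chr1:128359706-128359825, minus strand) has 3 cores of which a pair overlap, Mcm5 (chr8:75109346-75109465, plus strand) has 2 overlapping cores and Pola1 (chrX:93632184-93632303, minus strand) has 1. Rrm1 (chr7:102441575-102441694, plus strand) and Rrm2 (chr12:24708121-24708240, plus strand) have none in this window.
Mcm6: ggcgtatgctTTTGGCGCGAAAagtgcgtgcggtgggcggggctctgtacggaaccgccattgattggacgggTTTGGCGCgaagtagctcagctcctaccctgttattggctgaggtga
Mcm5: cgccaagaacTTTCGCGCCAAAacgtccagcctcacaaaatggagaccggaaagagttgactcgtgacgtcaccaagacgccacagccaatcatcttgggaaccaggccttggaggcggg
Pola1: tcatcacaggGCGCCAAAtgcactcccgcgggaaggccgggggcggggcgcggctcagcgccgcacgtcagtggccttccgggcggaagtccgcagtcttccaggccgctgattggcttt
Rrm1: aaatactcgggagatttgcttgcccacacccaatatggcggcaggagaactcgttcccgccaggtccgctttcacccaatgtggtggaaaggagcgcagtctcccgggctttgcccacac
Rrm2: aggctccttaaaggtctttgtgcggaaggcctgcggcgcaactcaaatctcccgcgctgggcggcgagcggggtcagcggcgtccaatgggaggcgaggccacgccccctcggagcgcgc

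The libraries differed in ways that touch these genes. One read was worth 0.0155 to 0.0418 CPM, and the library with the fewest reads on a member still held 65 on Rpa3. Anti-PD-1 4 Gy replicates 2 and 3 stood apart, at -81.51 and -98.31 on the first principal component (all others -46.76 to 51.9), with 6210 and 5435 genes without a read (others 2383 to 3987). Counts of called genes that rest on 4 Gy are therefore given with and without both. The numbers after S in the library names run from 13 to 17 at 0 Gy, from 26 to 30 at 4 Gy and from 31 to 36 at 8 Gy. What they stand for and dose therefore cannot be told apart in any of the 3 dose comparisons. Within each dose the IgG libraries carry the lower numbers, so number and antibody cannot be told apart there either. Summed markers of lung epithelium (12 genes, among them Sftpc, Ager and Scgb1a1) ranged from 1781 to 9494 CPM at 0 Gy, from 12572 to 28327 at 4 Gy and from 1879 to 8119 at 8 Gy. Those of lung endothelium (6 genes) ranged from 141 to 447, from 353 to 656 and from 135 to 282 CPM. Those of leukocytes (10 genes) ranged from 3194 to 6705, from 4954 to 8054 and from 4697 to 6727 CPM. The leukocyte sum is mostly Lyz2, which made 7249 of the 8054 CPM in IgG 4 Gy replicate 2. The median log2 fold change of the 10 leukocyte genes at 4 Gy against 0 Gy was 0.04. The part of these shifts in the results was not tested. No gene of these lists was at 0 in any library.

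**Figure D1:**
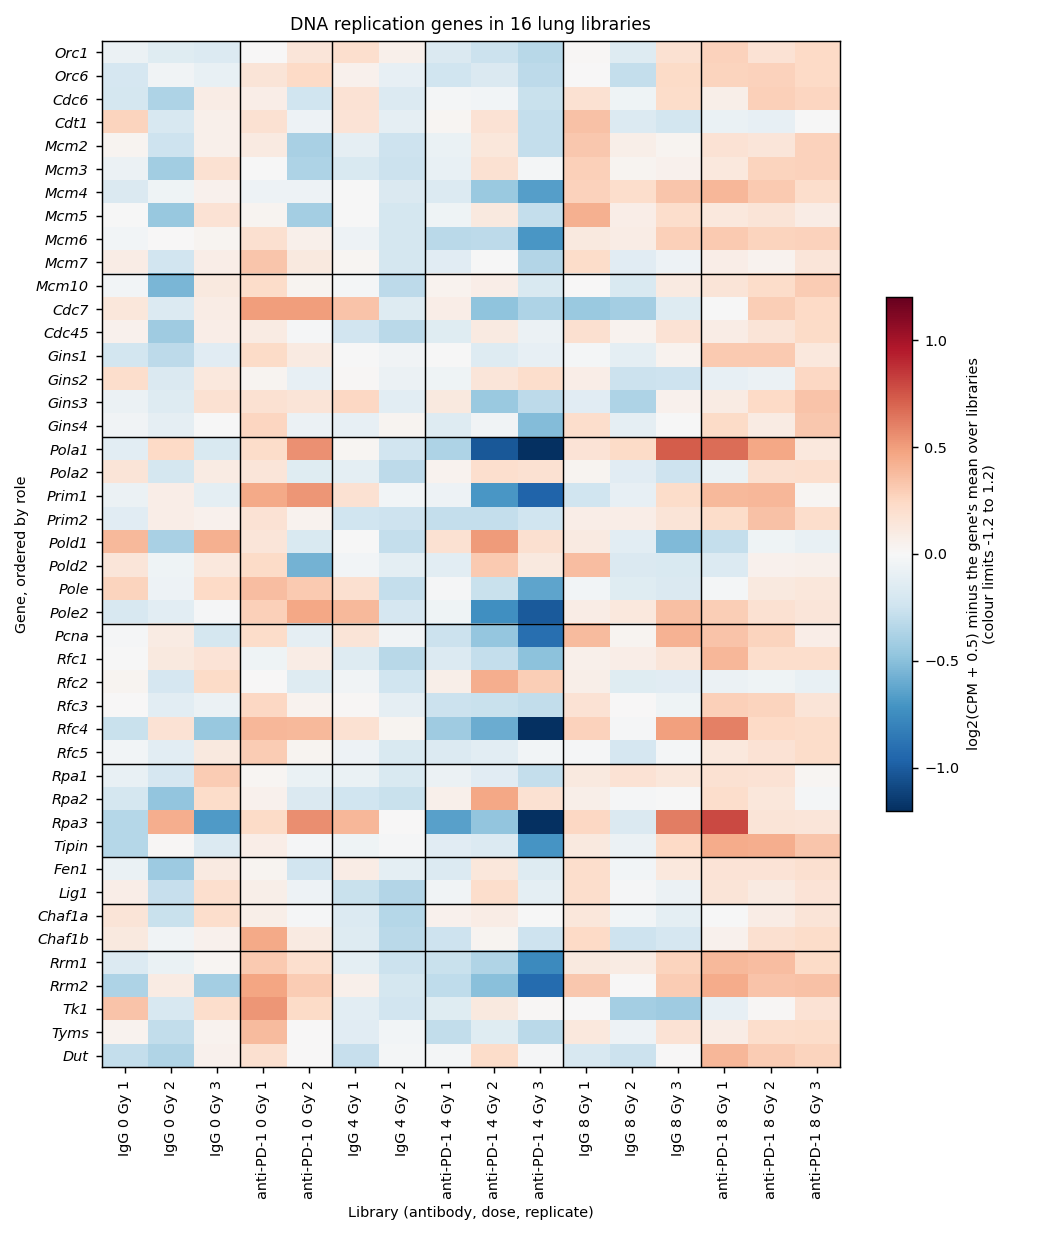
Each row is one of the 44 replication genes, ordered by role with lines between roles, and each column is a library, with lines between the 6 groups. Colour is log2(CPM + 0.5) minus the gene's mean over the 16 libraries, red above and blue below. The library below the mean for most of the 44 genes is IgG 4 Gy replicate 2 (40), followed by anti-PD-1 4 Gy replicate 3 (37). The one below for fewest is anti-PD-1 0 Gy replicate 1 (3), followed by anti-PD-1 8 Gy replicates 2 and 3 (4 each).

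Among themselves the members spanned a wide range of expression. Per kilobase of exon, mean CPM was highest for Pcna, the sliding clamp (45.7), Rrm2, the regulated subunit of ribonucleotide reductase (40.8), and Mcm3 (37.7), Mcm6 (33.2) and Mcm5 (29.7) of the helicase ring. It was lowest for Orc1, the largest origin recognition subunit (1.81), Pole2, a subunit of polymerase epsilon (1.97), Pola1, the catalytic subunit of polymerase alpha (2.71), and Gins3 (2.84). The ring subunits, which assemble in equal numbers, ranged from 17.7 (Mcm2) to 37.7 (Mcm3) on this scale. The length counts every annotated exon of a gene and can exceed that of any transcript. It was 6956 bases for Mcm2, whose longest transcript has 3494, and 3752 for Mcm3, whose longest has 3431. The order of genes therefore depends on the length used, and levels per transcript length were not computed. Between libraries, Pola1 and Rpa3 varied most, with the highest library 4.86-fold above the lowest for each, and Gins2 and Rfc5 least, at 1.42-fold each. The reading is limited for 17 members that overlap a gene on the opposite strand, among them Pola1, Pole, Prim2, Rfc4, Cdc45 and Tk1, because the sources used here do not say whether strand was used in counting; Pcna and Tyms also have named pseudogenes.

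The comparison of 8 Gy with 4 Gy showed the broadest difference, among the 44 genes as among all tested genes. With 6 libraries against 5, 14 of the 44 genes were higher at 8 Gy and none lower (limma, Benjamini-Hochberg adjusted p under 0.05 over all tested genes), where 34.3% of all tested genes were called, 17% higher and 17.2% lower. The median log2 fold change was 0.25 over the 44 genes and 0.06 over all tested genes, and 38 of the 44 values were above 0. In limma, 22 of the 44 (50%) had an unadjusted p under 0.05, against 46.3% of all tested genes. All log2 values are on the log2(CPM + 0.5) scale. The 14 came from 6 of the 8 roles, with none from lagging strand maturation or chromatin assembly. Called members were Mcm4 and Mcm6 of the helicase ring, Cdc45, Pola1, Prim2, Pcna, Rfc1, Rfc3 and Rfc4 of the clamp and its loader, Rpa1 and Tipin at the fork, and Rrm1, Rrm2 and Tyms of nucleotide supply. The calls of Rpa1 and Tyms held in 13 each of the 26 alternative settings and left-out libraries tried, and that of Cdc45 in 7. Of the 14, 6 (Rrm1, Rrm2, Mcm4, Mcm6, Rfc1 and Pola1) passed in each of the 26. With GC-corrected values, described further on, the log2 fold changes of these 6 were smaller: 0.27 for Rrm1, 0.40 for Rrm2, 0.33 for Mcm4, 0.39 for Mcm6, 0.28 for Rfc1 and 0.52 for Pola1.

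Mcm6 (chr1:128331590-128359664, minus strand) read 146 and 132 CPM with IgG and 122, 122 and 93.9 CPM with anti-PD-1 at 4 Gy. At 8 Gy it read 166, 162 and 187 CPM with IgG and 190, 183 and 186 CPM with anti-PD-1. At 0 Gy it read 149, 154 and 156 CPM with IgG and 174 and 159 CPM with anti-PD-1. Its 8 Gy values were all higher than its 4 Gy values, which in turn were all lower than those at 0 Gy. The log2 fold change of 8 Gy against 4 Gy was 0.52 ± 0.09 (SE; limma adjusted p 0.00114), or 1.43-fold.

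Mcm4 (chr16:15623897-15637400, minus strand), another ring subunit, read 62.6, 67.9 and 73.3 CPM with IgG and 67.4 and 67.4 CPM with anti-PD-1 at 0 Gy. At 4 Gy it read 70.0 and 62.5 CPM with IgG and 62.8, 51.5 and 44.4 CPM with anti-PD-1. At 8 Gy it read 85.6, 81.4 and 89.2 CPM with IgG and 93.1, 88.0 and 81.7 CPM with anti-PD-1. All 6 libraries at 8 Gy were above all others, and the 0 Gy and 4 Gy libraries overlapped. The log2 fold change was 0.55 ± 0.10 against 4 Gy (limma adjusted p 0.00127) and 0.35 ± 0.10 against 0 Gy (limma adjusted p 0.0188).

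Rrm1 and Rrm2 encode the large and the regulated small subunit of ribonucleotide reductase, which makes deoxyribonucleotides. Rrm1 (chr7:102441695-102469771, plus strand) read 83.4, 88.4 and 94.7 CPM with IgG and 116 and 107 CPM with anti-PD-1 at 0 Gy. It read 86.1 and 77.8 CPM with IgG and 77.5, 72.7 and 54.8 CPM with anti-PD-1 at 4 Gy, and 101, 100 and 113 CPM with IgG and 123, 121 and 110 CPM with anti-PD-1 at 8 Gy. The 4 Gy and 8 Gy libraries did not overlap, and the log2 fold change between them was 0.57 ± 0.10 (limma adjusted p 0.00114). Rrm2 (chr12:24708241-24714146, plus strand) read 84.2, 117 and 82.3 CPM with IgG and 152 and 135 CPM with anti-PD-1 at 0 Gy. At 4 Gy it read 114 and 94.3 CPM with IgG and 88.1, 76.8 and 57.5 CPM with anti-PD-1, and at 8 Gy 137, 110 and 135 CPM with IgG and 149, 138 and 139 CPM with anti-PD-1. The lowest 8 Gy library, IgG replicate 2, lay below the highest 4 Gy library, IgG replicate 1. The log2 fold change of 8 Gy against 4 Gy was 0.62 ± 0.13 (limma adjusted p 0.0033).

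Pola1 (chrX:93304767-93632155, minus strand) had the largest difference among the 44 genes, 0.93 ± 0.19 on the log2 scale (limma adjusted p 0.0031) or 1.90-fold. It ranged from 19.6 to 32.8 CPM at 0 Gy, from 7.70 to 22.7 CPM at 4 Gy and from 24.4 to 37.4 CPM at 8 Gy. The 4 Gy and 8 Gy ranges did not overlap, and the lowest 4 Gy values were those of anti-PD-1. Its partner Pola2, the gene of the polymerase group with the highest mean CPM, did not pass. Pola2 read 63.7 and 55.5 CPM with IgG and 71.4, 79.8 and 78.9 CPM with anti-PD-1 at 4 Gy, 71.1, 63.0 and 58.4 CPM with IgG and 65.7, 79.1 and 79.8 CPM with anti-PD-1 at 8 Gy, and 77.3, 59.7 and 74.0 CPM with IgG and 76.6 and 62.5 CPM with anti-PD-1 at 0 Gy, so its 3 doses overlapped. Whether the 2 genes differed from each other was not tested. Of the primase genes of the same complex, Prim2 passed and Prim1 did not (limma adjusted p 0.0822).

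Among clamp genes, Pcna read 119 and 104 CPM with IgG and 89.5, 77.3 and 57.0 CPM with anti-PD-1 at 4 Gy, and 139, 110 and 143 CPM with IgG and 136, 129 and 113 CPM with anti-PD-1 at 8 Gy. At 0 Gy it read 106, 115 and 92.8 CPM with IgG and 125 and 99.2 CPM with anti-PD-1. Its 4 Gy and 8 Gy libraries overlapped, and the log2 fold change was 0.50 ± 0.13 (limma adjusted p 0.0103). Rfc1 (chr5:65261850-65335670, minus strand), the large subunit of the loader that opens the clamp, read 51.8 and 45.6 CPM with IgG and 51.5, 47.4 and 40.8 CPM with anti-PD-1 at 4 Gy. It read 57.6, 62.7 and 64.9 CPM with IgG and 55.8 and 61.7 CPM with anti-PD-1 at 0 Gy, and 60.4, 61.2 and 63.9 CPM with IgG and 76.4, 67.1 and 67.0 CPM with anti-PD-1 at 8 Gy. All 5 of its 4 Gy libraries were below all others, and the log2 fold change of 8 Gy against 4 Gy was 0.47 ± 0.09 (limma adjusted p 0.00176). Rpa1, the large subunit of the single-strand binding complex, read 84.3, 78.3 and 111 CPM with IgG and 91.1 and 85.2 CPM with anti-PD-1 at 0 Gy, 85.0 and 79.0 CPM with IgG and 85.2, 81.7 and 73.6 CPM with anti-PD-1 at 4 Gy, and 97.2, 101 and 98.7 CPM with IgG and 102, 101 and 91.1 CPM with anti-PD-1 at 8 Gy. Its 8 Gy libraries all lay above its 4 Gy libraries, with 0.28 ± 0.10 on the log2 scale (limma adjusted p 0.035). With GC-corrected values Rpa1 stood at 0.21 and did not pass (limma adjusted p 0.0641).

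In all, 7 genes (Mcm4, Mcm6, Pola1, Prim2, Rfc1, Rpa1 and Rrm1) had every 8 Gy library above every 4 Gy library, where 6.06% of all tested genes did. None had the reverse order, which 6.6% of all tested genes had. Without both outlying libraries, 7 of the 14 calls remained (Mcm4, Mcm6, Pola1, Prim2, Rfc1, Rrm1 and Rrm2), where 2.55% of all genes tested then were called higher. Without IgG 4 Gy replicate 2, 8 genes were called, where 21% of all genes were.

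**Figure D2:**
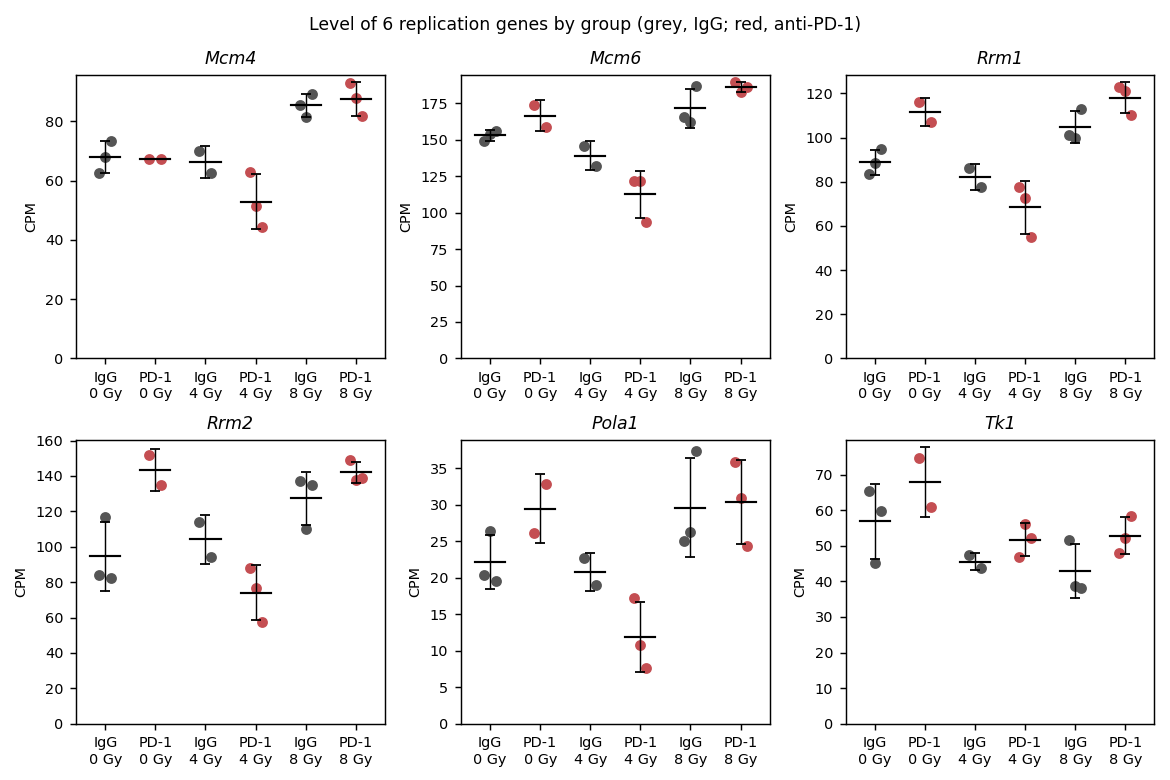
Points are single libraries in CPM (y axes start at 0), the bar is the group mean and the error bar the SD, for 6 genes in the 6 groups (n = 2 or 3). Mcm4 at 8 Gy lies above every other library, Rrm1, Mcm6 and Pola1 are lowest in anti-PD-1 4 Gy, and Tk1 is lower at 8 Gy (47.9 CPM on average) than at 0 Gy (61.3 CPM).

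The comparison of 8 Gy with 0 Gy (6 libraries against 5) gave few calls. Mcm4 was higher, with the values above, and Tk1 was lower, so that 2 of 44 genes passed where 20.7% of all tested genes did (4.68% higher and 16.1% lower). The median log2 fold change was 0.12 over the 44 genes and -0.09 over all tested genes, and 31 genes were above 0. In limma, 10 of the 44 (22.7%) had an unadjusted p under 0.05, against 34.7% of all tested genes. Mcm4 was the only member with every 8 Gy library above every 0 Gy library, which 1.54% of all tested genes showed, and no member had the reverse order (4.91%). The call of Mcm4 was lost when replicate 1 of IgG 0 Gy, either library of anti-PD-1 0 Gy or replicate 1 of anti-PD-1 8 Gy was left out, at limma adjusted p of 0.052 to 0.0627.

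Tk1 (chr11:117815526-117826092, minus strand) encodes the thymidine kinase of dividing cells, which salvages thymidine. It read 65.5, 45.2 and 59.9 CPM with IgG and 74.8 and 60.9 CPM with anti-PD-1 at 0 Gy, and 51.7, 38.7 and 38.2 CPM with IgG and 48.1, 52.2 and 58.3 CPM with anti-PD-1 at 8 Gy. At 4 Gy it read 47.3 and 43.8 CPM with IgG and 46.8, 56.1 and 52.2 CPM with anti-PD-1. IgG 0 Gy replicate 2 lay within the 8 Gy range, so the groups overlapped. The log2 fold change of 8 Gy against 0 Gy was -0.38 ± 0.12 (limma adjusted p 0.0402), and the call held in 11 of 26 alternatives.

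The remaining subunits of the helicase ring had values on the same side as Mcm4, apart from Mcm7, without passing. Mcm3 read 133, 105 and 159 CPM with IgG and 139 and 108 CPM with anti-PD-1 at 0 Gy, 123 and 117 CPM with IgG and 132, 159 and 137 CPM with anti-PD-1 at 4 Gy, and 171, 143 and 145 CPM with IgG and 152, 169 and 169 CPM with anti-PD-1 at 8 Gy. Its 0 Gy and 8 Gy libraries overlapped, and the log2 fold change of 8 Gy against 0 Gy was 0.32 ± 0.12 (limma adjusted p 0.0636). That of Mcm5 was 0.32, of Mcm2 0.27 and of Mcm6 0.16, at limma adjusted p of 0.0894, 0.112 and 0.208. Mcm7 stood at -0.06, and above 0 once library medians were set equal, when 5 of the 6 ring subunits passed. That scaling moved the median of all tested genes from -0.09 to 0.02, and 11 of the 44 genes were then called higher (8.94% of all tested genes). The calls over all genes went from 822 higher and 2818 lower to 1568 higher and 1915 lower with it.

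The comparison of 4 Gy with 0 Gy (5 libraries each) gave 7 lower genes and none higher, or 7 of 44 where 17.5% of all tested genes were called, 12.2% lower and 5.33% higher. They were Rrm1, Mcm6, Rfc1, Pola1, Prim2 (the large primase subunit), Pole (the catalytic subunit of polymerase epsilon) and Chaf1b (a subunit of the histone chaperone CAF-1). The median log2 fold change was -0.16 over the 44 genes and -0.14 over all tested genes. Among these 7, Pola1 had the largest value, -0.71 ± 0.20 (limma adjusted p 0.0317), followed by Pole at -0.42 ± 0.13 (limma adjusted p 0.04) and Rrm1 at -0.42 ± 0.10 (limma adjusted p 0.0217). Mcm6 stood at -0.36 ± 0.09, Rfc1 at -0.34 ± 0.09, Prim2 at -0.31 ± 0.09 and Chaf1b at -0.36 ± 0.12. The calls of the 7 held in 3 (Chaf1b, limma adjusted p 0.0497) to 19 (Rrm1) of 26 alternatives. Every 4 Gy library lay below every 0 Gy library for Mcm6, Prim2 and Rfc1, where 4.23% of all tested genes did so, and no gene had the reverse order (1.73%). The values of Rrm2, at -0.41 (limma adjusted p 0.0512), and Prim1, the catalytic primase subunit, at -0.48 (limma adjusted p 0.0557), did not pass. Of the 44 genes, 14 (31.8%) had an unadjusted limma p under 0.05, against 38.2% of all tested genes.

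No gene of the 44 was called at 4 Gy against 0 Gy without both outlying libraries, when 0.503% of all genes tested were called, nor when either library of anti-PD-1 0 Gy or replicate 2 of IgG 4 Gy was left out. Leaving out replicate 1 of IgG 0 Gy or of IgG 4 Gy gave 4 genes, where 9.25% and 8.13% of all genes tested then were called. Leaving out replicate 1, 2 or 3 of anti-PD-1 4 Gy gave 12, 3 and 1 of the 44, where 32.9%, 8.62% and 5.66% of all genes were called. With library medians set equal 1 gene was called lower (4.55% of all tested genes), and the calls over all genes went from 935 higher and 2141 lower to 1275 higher and 798 lower, with the median of all genes moving from -0.14 to -0.03. The comparisons with 0 Gy share the same 5 libraries, and those with 4 Gy share another 5, so they are not independent of each other.

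**Figure D3:**
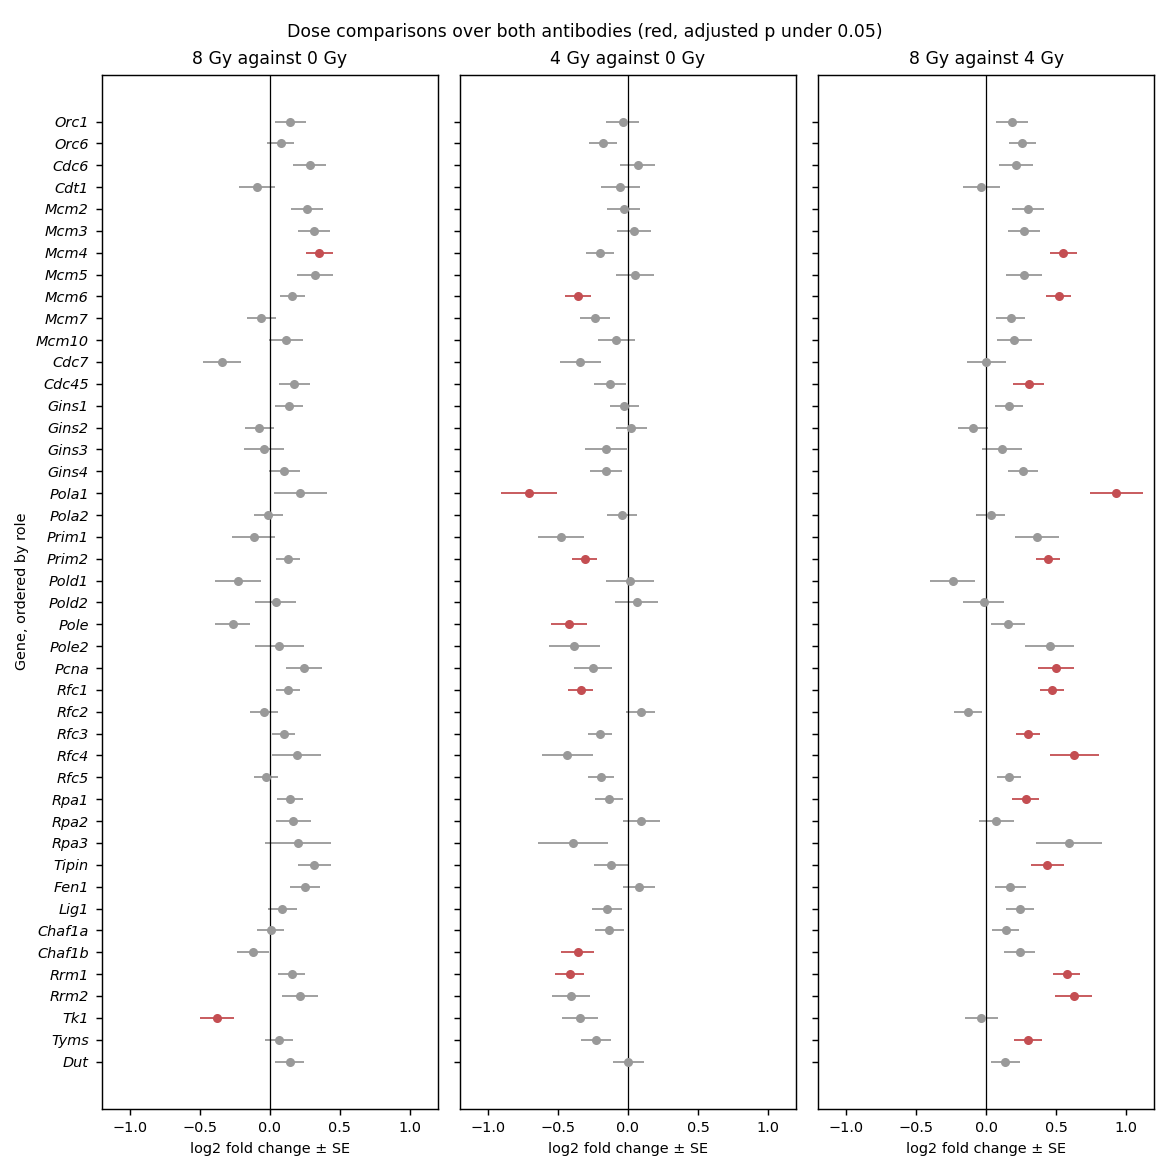
Points are the log2 fold changes (log2(CPM + 0.5) scale) of the 44 genes in the 3 dose comparisons over both antibodies, with bars of 1 SE, ordered by role; red marks limma adjusted p under 0.05. The counts in red are 2, 7 and 14 from left to right.

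No member passed the test for the antibody over all doses. In anti-PD-1 against IgG over the 3 doses (8 libraries each), 0 of 44 genes passed in limma, where 0.234% of all tested genes did, and 6 (13.6%) had an unadjusted p under 0.05, against 19.1% of all tested genes. The smallest p was that of Dut, the dUTPase that keeps uracil out of DNA. Dut read 33.2, 31.5 and 42.0 CPM with IgG against 46.4 and 40.6 CPM with anti-PD-1 at 0 Gy, 33.3 and 39.8 against 39.8, 47.3 and 40.1 CPM at 4 Gy, and 35.5, 33.9 and 40.8 against 53.5, 50.3 and 49.1 CPM at 8 Gy. The antibody groups did not overlap at 8 Gy and overlapped at 0 Gy and met at 4 Gy, and the log2 fold change was 0.33 ± 0.09 (limma adjusted p 0.0812). Gins1, a subunit of GINS, read 9.08, 8.50 and 9.71 CPM against 12.6 and 11.6 CPM at 0 Gy, 10.6 and 10.4 against 10.7, 9.57 and 10 CPM at 4 Gy, and 10.5, 9.80 and 11 against 13.4, 13.4 and 11.7 CPM at 8 Gy, in the same order of antibodies. Its log2 fold change was 0.21 ± 0.08 (limma adjusted p 0.193), and that of Tk1 was 0.25 ± 0.10 (limma adjusted p 0.199). Leaving out replicate 3 of IgG 0 Gy or replicate 1 of anti-PD-1 4 Gy gave 1 call among the 44, where 7.59% and 5.26% of all genes were called.

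The change from 0 to 4 Gy differed between the antibodies for 3 genes. The tested difference, the log2 fold change with anti-PD-1 minus that with IgG, was -1.12 ± 0.27 for Rrm2 (limma adjusted p 0.0398), -1.45 ± 0.37 for Rfc4, a small subunit of the clamp loader (limma adjusted p 0.0409), and -1.18 ± 0.33 for Prim1 (limma adjusted p 0.0448). These were 3 of 44 genes where 5.32% of all tested genes had a lower and 3.76% a higher difference, and the calls held in 8, 8 and 7 of 25 alternatives. An unadjusted p under 0.05 was seen for 15 of the 44 (34.1%), against 33.9% of all tested genes. Prim1 read 16.5, 18.4 and 16 CPM with IgG and 24.0 and 25.2 CPM with anti-PD-1 at 0 Gy, against 19.8 and 17 CPM with IgG and 16.6, 10.5 and 8.65 CPM with anti-PD-1 at 4 Gy. At 8 Gy Prim1 read 14.6, 16.2 and 20.3 CPM with IgG and 22.9, 23.0 and 17.7 CPM with anti-PD-1. With anti-PD-1 the 0 Gy and 4 Gy libraries of Prim1 did not overlap, and with IgG they did.

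Rfc4 read 6.75, 9.36 and 5.89 CPM with IgG and 11 and 11 CPM with anti-PD-1 at 0 Gy, and 9.42 and 8.43 CPM with IgG and 6.01, 5.27 and 3.16 CPM with anti-PD-1 at 4 Gy. At 8 Gy it read 10, 8.16 and 11.8 CPM with IgG and 12.8, 9.79 and 9.66 CPM with anti-PD-1. The anti-PD-1 libraries were thus the higher ones at 0 Gy and the lower ones at 4 Gy. For Rrm2, Prim1 and Rfc4 the log2 fold changes of 4 Gy against 0 Gy were -0.97, -1.07 and -1.16 with anti-PD-1 and 0.15, 0.11 and 0.29 with IgG, of which those with IgG did not pass (limma adjusted p 0.792, 0.885 and 0.699). The anti-PD-1 0 Gy group holds 2 libraries and the anti-PD-1 4 Gy group holds both outlying libraries. Without those, none of the 44 differences passed. None passed either when 1 library was left out among replicates 1 and 3 of IgG 0 Gy, both libraries of anti-PD-1 0 Gy, both of IgG 4 Gy, replicates 2 and 3 of anti-PD-1 4 Gy, replicate 2 of IgG 8 Gy and the 3 of anti-PD-1 8 Gy. Leaving out replicate 2 of IgG 0 Gy gave 8 genes (27.5% of all genes tested then), and replicate 1 of anti-PD-1 4 Gy gave 10 (27% of all). The shares of all genes in the fits without a call among the 44 are not given. Those fits therefore say nothing particular about these genes.

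Within anti-PD-1, 15 of the 44 genes were lower at 4 Gy than at 0 Gy, where 25.9% of all tested genes were, and 18 were higher at 8 Gy than at 4 Gy, where 24.4% were. Within IgG none was called in either comparison by limma, where 0.0057% and 7.58% of all tested genes were. An unadjusted p under 0.05 was seen for 1 and 7 of the 44, against 11.5% and 25.3% of all tested genes. Without both outlying libraries the counts within anti-PD-1 were 0 and 0, with 1 library left at 4 Gy, which is assumed to vary like the other groups. The shares of all genes called within anti-PD-1 in that setting are not given. For 8 Gy against 0 Gy with all libraries, no gene was called within either antibody by limma, where 10.6% (IgG) and 2.83% (anti-PD-1) of all tested genes were. An unadjusted p under 0.05 was seen for 3 and 2 of the 44, against 27.1% and 18.6% of all tested genes. The tested difference between antibodies passed for no member in 8 Gy against 0 Gy (0 at an unadjusted p under 0.05, against 3.41% of all tested genes, and 0% of all genes called), where Rrm2 stood at -0.45, Rfc1 at 0.25 and Pole2 at -0.47.
Pole2 read 4.74, 4.96 and 5.41 CPM with IgG and 6.80 and 7.72 CPM with anti-PD-1 at 0 Gy, 7.33 and 4.71 against 5.25, 3.09 and 2.48 CPM at 4 Gy, and 5.84, 6.04 and 7.20 against 6.83, 6.28 and 6.10 CPM at 8 Gy. It was lowest in the outlying libraries. In 8 Gy against 4 Gy the difference passed for no member either (14 at an unadjusted p under 0.05, or 31.8%, against 27.4% of all tested genes, and 0% of all genes called), with Cdc7 at 0.87 (limma adjusted p 0.0932), Prim1 at 0.96 and Rfc4 at 0.97. Leaving out replicate 1 of anti-PD-1 4 Gy gave 7 of the 44 (15.9%), where 19.3% of all genes were called. Cdc7, the kinase that fires origins, read 15.7, 12.6 and 15.2 CPM with IgG and 20.3 and 20.3 CPM with anti-PD-1 at 0 Gy, 18.2 and 12.7 against 15.1, 10 and 10.9 CPM at 4 Gy, and 10.3, 10.6 and 12.7 against 14.1, 17.6 and 16.9 CPM at 8 Gy. Its antibody groups did not overlap at 0 Gy and 8 Gy.

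GC content moved with these differences. Across the 44 genes, the log2 fold change of 8 Gy against 4 Gy correlated with the GC content of the longest transcript at r = -0.716, against -0.405 across 17290 tested genes with a value, in the same libraries. For 4 Gy against 0 Gy r was 0.605 (0.313 over all), and for the difference between antibodies in that comparison 0.764 (0.549 over all). For 8 Gy against 0 Gy r was -0.302 (-0.211 over all). Without both outlying libraries these values over the 44 genes were -0.579, 0.403, 0.741 and -0.302, and over 17063 genes -0.297, 0.158, 0.44 and -0.212, in the same order. The 14 genes higher at 8 Gy than at 4 Gy had a median GC content of 45.4%, and the other 30 genes 50.7%.

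Values with the GC trend of each library subtracted gave a different set of calls. For 8 Gy against 4 Gy, 15 genes were higher (13.6% of all tested genes): Cdt1, Chaf1a, Fen1, Gins4, Lig1, Mcm2 to Mcm7, Pola1, Rfc1, Rrm1 and Rrm2. Of the earlier 14, Mcm4, Mcm6, Pola1, Rfc1, Rrm1 and Rrm2 were again among them. All 6 ring subunits passed here, with log2 fold changes from 0.25 to 0.39. For 8 Gy against 0 Gy, 9 genes were higher (12% of all tested genes), namely Cdc6, the flap nuclease gene Fen1, the ligase gene Lig1, Mcm2 to Mcm6 and Rfc1, and Tk1 was lower (14%). The largest was Mcm3 at 0.45 ± 0.08 (limma adjusted p 0.00245). For 4 Gy against 0 Gy only Pola1 passed, at -0.34 (limma adjusted p 0.0337; 5.83% of all tested genes were lower), and the difference between antibodies passed for none. These values were added after the data were seen.

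**Figure D4:**
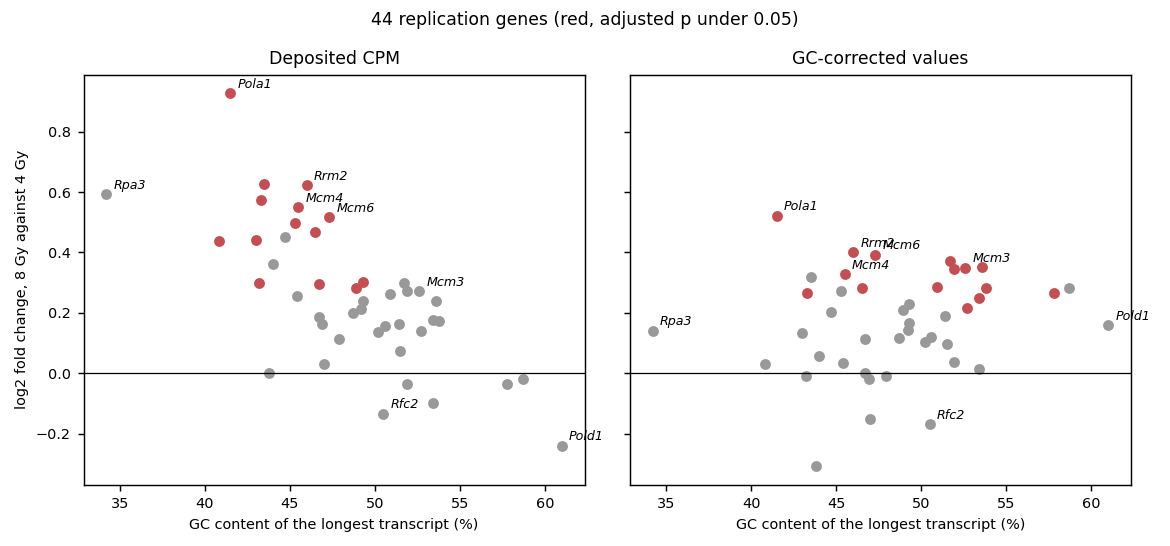
The log2 fold change of 8 Gy against 4 Gy (y) is plotted against the GC content of the longest transcript in percent (x) for the 44 genes, from the deposited CPM (left) and from GC-corrected values (right); red marks limma adjusted p under 0.05. On the left 14 genes pass and the values slope down with GC content, and on the right 15 pass.

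In 3 further roles the gene with the highest mean CPM passed in no dose comparison on the deposited values. Gins2 read 86.7, 66.4 and 81.8 CPM with IgG and 76.8 and 70.0 CPM with anti-PD-1 at 0 Gy, 75.7 and 71.2 against 72.4, 82.7 and 86.6 CPM at 4 Gy, and 78.9, 62.5 and 62.7 against 69.8, 71.2 and 88.8 CPM at 8 Gy. Lig1, which seals Okazaki fragments, read 69.1, 53.8 and 74.9 CPM with IgG and 68.3 and 62.6 CPM with anti-PD-1 at 0 Gy, 54.1 and 51.0 against 63.2, 75.6 and 60.0 CPM at 4 Gy, and 75.5, 64.5 and 62.3 against 72.9, 70.4 and 73.0 CPM at 8 Gy. Chaf1a, the large CAF-1 subunit, read 76.8, 57.4 and 79.8 CPM with IgG and 72.3 and 68.3 CPM with anti-PD-1 at 0 Gy, 61.7 and 54.2 against 71.3, 73.6 and 68.8 CPM at 4 Gy, and 75.8, 67.3 and 63.5 against 68.8, 73.2 and 76.7 CPM at 8 Gy. For all 3 genes the doses overlapped on the deposited values. The E2F core lay in 3 of the 11 genes called at 8 Gy against 4 Gy that have a promoter entry, and in 10 of the other 25.

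Other genes of the pathway were read beside the 44. Counts from the deposited values of all libraries stand beside the shares of all tested genes given above. For 8 Gy against 4 Gy these were 17% higher and 17.2% lower. For 4 Gy against 0 Gy they were 5.33% higher and 12.2% lower, and for 8 Gy against 0 Gy 4.68% higher and 16.1% lower. With GC-corrected values, 13.6% were higher at 8 Gy than at 4 Gy and 5.83% lower at 4 Gy than at 0 Gy. At 8 Gy against 0 Gy, 12% were then higher and 14% lower. Counts without both outlying libraries stand beside the smaller shares given above for that setting, where given. Of 37 further replication factors, 16 were higher at 8 Gy than at 4 Gy and none lower, 6 were lower at 4 Gy than at 0 Gy, and 1 was higher at 8 Gy than at 0 Gy. That 1 was Pclaf, a PCNA-binding factor, at 0.40 ± 0.10 (limma adjusted p 0.0145), a call lost without replicate 1 of anti-PD-1 0 Gy (limma adjusted p 0.0698). The 3 counts without both outlying libraries were 2, 0 and 2, and with GC-corrected values 9, 1 and 8. Topbp1, which loads Cdc45 and activates the ATR kinase, fell by 0.53 on the log2 scale at 4 Gy against 0 Gy (limma adjusted p 0.0128, and 0.107 without both outlying libraries). Top2a, which untangles DNA, rose by 0.46 at 8 Gy against 4 Gy (limma adjusted p 0.00235), and stood at 0.15 with GC-corrected values (limma adjusted p 0.319). Of 11 other nucleotide supply genes, 4 were higher at 8 Gy than at 4 Gy, among them Rrm2b, the p53-regulated reductase subunit, at 0.49 ± 0.16. The call of Rrm2b held in 17 of 26 alternatives, and its value was 0.04 with GC-corrected values (limma adjusted p 0.866) and 0.33 without both outlying libraries (limma adjusted p 0.214). Of the 11, 1 was higher in each of these settings. Against 0 Gy, 2 of the 11 were higher at 8 Gy, Samhd1 (0.90 ± 0.18), which breaks down deoxyribonucleotides, and Dck (0.52 ± 0.13), the latter lost without replicate 1 of anti-PD-1 0 Gy (limma adjusted p 0.0575). Shmt1 was lower at both doses, but the call at 8 Gy held in only 7 of 26 alternatives and that at 4 Gy was lost without both outlying libraries (limma adjusted p 0.0998).

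Of 28 genes of G1-S control and E2F, 12 were higher at 8 Gy than at 4 Gy and none lower, 2 higher and 7 lower at 4 Gy than at 0 Gy, and 3 higher and 1 lower at 8 Gy than at 0 Gy. Of the 28, 2 were higher at 8 Gy than at 4 Gy without both outlying libraries, and 1 was higher and 0 lower at 4 Gy than at 0 Gy. Cdkn1a, the p53 target that blocks cyclin-dependent kinases, ranged from 40.5 to 62.8 CPM at 0 Gy, from 132 to 281 CPM at 4 Gy and from 125 to 201 CPM at 8 Gy. Neither dose overlapped 0 Gy, and the log2 fold changes were 1.81 ± 0.13 at 4 Gy (limma adjusted p 2.46e-05) and 1.63 ± 0.13 at 8 Gy (limma adjusted p 5.09e-05). Ccne2, a cyclin E, rose by 0.83 on the log2 scale at 8 Gy against 4 Gy (limma adjusted p 0.00688, and 0.0852 without both outlying libraries). Ccne1 rose by 0.43 at 8 Gy against 0 Gy (limma adjusted p 0.0269), a call that held in 21 of 26 alternatives, and Cdk2, their kinase, fell by 0.56 at 8 Gy against 0 Gy (limma adjusted p 0.00291). E2f1 stood at 0.13, 0.11 and 0.02 and Gmnn, the inhibitor of Cdt1, at 0.12, -0.17 and 0.29 in 8 Gy against 0 Gy, 4 Gy against 0 Gy and 8 Gy against 4 Gy, none of which passed.

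Of 10 replication checkpoint genes, 5 were higher at 8 Gy than at 4 Gy and 2 lower at 4 Gy than at 0 Gy, Cdc25c (-0.66 ± 0.14) and Wee1 (-0.51 ± 0.17). The call of Wee1 held in only 3 of 26 alternatives. Without both outlying libraries neither count had a call, and with GC-corrected values 1 was higher and 1 lower at 8 Gy than at 4 Gy. Of 20 mitotic genes, 11 were lower at 4 Gy than at 0 Gy, 13 were higher at 8 Gy than at 4 Gy and none was called at 8 Gy against 0 Gy. These counts became 0 and 9 without both outlying libraries, and 7 and 16 with GC-corrected values. Mki67, the marker of cycling cells, read 231 to 305 CPM at 0 Gy, 138 to 222 CPM at 4 Gy and 217 to 313 CPM at 8 Gy. It fell by 0.52 on the log2 scale at 4 Gy against 0 Gy (limma adjusted p 0.0173) and rose by 0.46 at 8 Gy against 4 Gy (limma adjusted p 0.00718). The limma adjusted p-values were 0.124 and 0.0718 without both outlying libraries. Lung epithelial markers had the opposite order, with 11 of 12 higher at 4 Gy than at 0 Gy and 12 of 12 lower at 8 Gy than at 4 Gy, as did 3 of 6 and 6 of 6 endothelial markers. The 4 counts were 1, 11, 0 and 4 without both outlying libraries. Of 10 leukocyte markers, 3 were higher at 8 Gy than at 4 Gy (median log2 fold change of the 10 genes 0.37), 2 were higher at 8 Gy than at 0 Gy and 0 were called at 4 Gy against 0 Gy. The leukocyte counts were 1, 2 and 0 without both outlying libraries. Mitochondrially encoded genes were higher than at 0 Gy at both doses (7 of 9 at 4 Gy and 8 of 9 at 8 Gy), as were red blood cell genes (2 of 7 and 7 of 7), and neither list had a call at 8 Gy against 4 Gy. Neither had a call at 4 Gy against 0 Gy without both outlying libraries. The part of these lists in the differences of the 44 genes was not tested.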

How the data were processed

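Whole tumour-bearing lungs were profiled in 16 libraries. The authors deposited CPM (counts scaled to library size) with 1e-04 added. Per the submitters' processing notes, STAR, Partek and mm10 were used. Their versions, the counting, its strand setting and the annotation: not given in the sources used here. CPM summed to 866773 to 915009 per library. Whole reads could be recovered for only 60.4% to 63.4% of values (tolerance 0.02), so no count test was run. Gene positions and transcripts came from GENCODE M21, with which the starts of all 44 genes matched.

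From these values, log2(CPM + 0.5) of genes with at least 1 CPM in 2 libraries (17546) was fitted with limma 3.58.1 in R 4.3.3, as 6 group means with trend and robust variances, and p-values were adjusted by the Benjamini-Hochberg method over all tested genes (threshold 0.05). The script was tested on simulated data. Dose comparisons average both antibodies. GC-corrected values subtract from each library its median deviation in 20 bins of transcript GC content (98.5% of tested genes have a value). Alternatives were other pseudocounts, scalings and filters, a replicate block, an additive model, only the groups compared, and leaving out libraries.

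The 44 genes, their roles and the other lists were chosen with earlier results of these data known. The value in every library is given for the gene with the highest mean CPM of each role and for up to 3 genes with the lowest p in each of 7 comparisons, and other members by range. From each other list, up to 3 genes with the lowest p in each of 4 comparisons, and Rrm2b, Cdkn1a, Gmnn, E2f1, Ccne1, Ccne2 and Mki67, could be named.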

Additional observations from a re-analysis of the deposited data

Results flagged for a closer look

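In 5 of 132 sets of one gene at one dose, a single library lay far from the rest; chance gives about 1 in 20. Cdt1 was highest in IgG 8 Gy replicate 1 (64.5 CPM), Cdc45 lowest in IgG 0 Gy replicate 2 (13.8 CPM) and Tipin lowest in anti-PD-1 4 Gy replicate 3 (14 CPM), one of the outlying libraries. Fen1 (62.5 CPM) and Rrm2 (110 CPM) were both lowest at 8 Gy in IgG replicate 2.

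The change from 0 to 4 Gy differed between antibodies in a direct test for Rrm2 (-1.12, limma adjusted p 0.0398), Prim1 (-1.18, limma adjusted p 0.0448) and Rfc4 (-1.45, limma adjusted p 0.0409). These were 3 of 44 genes where 9.08% of all tested genes were called, 5.32% lower. The calls held in 8 of 25 alternatives for Rrm2 and Rfc4 and in 7 for Prim1, and all 3 were lost without both outlying libraries.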

How the results depend on the processing

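The calls of Rrm1, Rrm2, Mcm4, Mcm6, Rfc1 and Pola1 at 8 Gy against 4 Gy were kept in all 26 alternatives. Their values were smaller in GC-corrected data (0.27 for Rrm1, 0.33 for Mcm4 and 0.52 for Pola1). No member kept a call at 8 Gy against 0 Gy or 4 Gy against 0 Gy in all 26. Where a count moved, the cause was not tested. Calls over all genes moved too, also when single libraries were left out. At 8 Gy against 0 Gy, 822 higher and 2818 lower became 1421 and 1764 with quantile normalization and 2104 and 2453 with GC-corrected values. At 4 Gy against 0 Gy, 935 and 2141 became 1343 and 1061, and 1547 and 1023, in that order. With no filter (30095 genes) the counts were 740 and 2884 at 8 Gy, and 872 and 1570 at 4 Gy. Those with library medians set equal are given above. The 2 genes called at 8 Gy against 0 Gy became 5 with quantile normalization, 11 with library medians set equal, 1 with no filter and 10 with GC-corrected values. The 7 at 4 Gy against 0 Gy became 2, 1, 4 and 1 under those settings, 4 in an additive model, 0 with only the groups compared and 0 without both outlying libraries, where fewer samples enter. The 14 at 8 Gy against 4 Gy became 7 without both outlying libraries. The 3 differences between antibodies at 4 Gy against 0 Gy became 6 with quantile normalization and 0 with no filter, with GC-corrected values, with only the groups compared or without both outlying libraries. Over all genes they went from 660 higher and 933 lower to 1012 and 907 with library medians set equal. With quantile normalization they were 1227 and 1364, and with no filter 164 and 248.

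Within IgG, the 0 genes called at 8 Gy against 0 Gy became 1 with quantile normalization, 2 with library medians set equal and 5 with GC-corrected values. The 0 at 8 Gy against 4 Gy became 3 with library medians set equal and 6 with GC-corrected values. Over all genes within IgG, 253 higher and 1601 lower at 8 Gy against 0 Gy became 366 and 662 with quantile normalization. They became 459 and 781 with library medians set equal, which moved 288 and 1042 at 8 Gy against 4 Gy to 607 and 943. Within anti-PD-1, the 0 at 8 Gy against 0 Gy became 2 with GC-corrected values, and the 15 at 4 Gy against 0 Gy and 18 at 8 Gy against 4 Gy became 0 without both outlying libraries. With GC-corrected values, Prim2 at 4 Gy against 0 Gy turned to 0.011 (limma adjusted p 0.957) and Rfc3 at 8 Gy against 4 Gy to -0.008 (limma adjusted p 0.965).

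Leaving out 1 library at a time gave 0 to 5 genes at 8 Gy against 0 Gy, 0 to 12 at 4 Gy against 0 Gy, 8 to 18 at 8 Gy against 4 Gy and 0 to 1 for the antibody. The differences between antibodies ranged from 0 to 10 at 4 Gy against 0 Gy and from 0 to 7 at 8 Gy against 4 Gy. The share of all genes called moved in these fits too, as given above for several left-out libraries, so the ranges are not particular to the 44 genes. Within IgG, 8 Gy against 0 Gy gave 0 to 3. Within anti-PD-1, 4 Gy against 0 Gy gave 4 to 19 and 8 Gy against 4 Gy gave 13 to 23.

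Same-numbered samples had no higher median correlation than others. Deviations from the group means cancel out within a group, which ties these correlations together, so they cannot exclude pairing. Deviations of the 36 same-numbered pairs correlated at -0.546 to 0.442 (median -0.101), and 11 were over 0.1. Those of the 70 pairs with unlike numbers correlated at -0.442 to 0.592 (median 0.017), and 26 were over 0.1. For IgG 4 Gy the replicate number differs from the number in the library name, and pairing by the latter was not tested. A replicate block gave 1 call among the members at 8 Gy against 0 Gy, where 644 of all genes were higher and 2391 lower. At 4 Gy against 0 Gy it gave 5, where 728 of all genes were higher and 1342 lower. At 8 Gy against 4 Gy it gave 11, where 2676 were higher and 2867 lower. For the difference between antibodies at 4 Gy against 0 Gy it gave 0, where 0 were higher and 1 lower. Each of these fits tested 17546 genes. Groups of 2 or 3 pools limit what these tests can call.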
